A study of Mus musculus with 10 samples.

Results

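The genes described here encode the proteasome, its activators, its inhibitor and its assembly chaperones: every protein-coding mouse gene whose symbol is Psma, Psmb, Psmc, Psmd, Psme, Psmf or Psmg followed by a number, with pseudogenes left out. They number 48 of the 56748 gene identifiers in the count tables, and 46 of them passed the filter on low counts, among 15942 genes tested in all. Expression was measured by RNA-seq in beta cells, the insulin-secreting cells of the pancreatic islet, in 2 groups of 5 libraries. The LPS libraries (numbered 6 to 10) came from islets cultured for 48 hours with bacterial lipopolysaccharide at 50 ng/ml, and the untreated libraries (numbered 1 to 5) from islets without it. All islets were from male NOD mice, a strain prone to autoimmune diabetes, aged 6 to 8 weeks, and the beta cells were isolated by flow sorting after the islets had been dispersed with trypsin. LPS was therefore given to whole islets, with their other cells present, and not to isolated beta cells. The labels name no animals, so p-values measure the spread between these libraries, which may be partly technical.

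The proteasome degrades proteins tagged with ubiquitin. Its barrel-shaped core, the 20S particle, has outer rings of alpha subunits, which gate the entrance, and inner rings of beta subunits, of which Psmb5, Psmb6 and Psmb7 carry the constitutive catalytic sites. In cells exposed to interferon these are replaced in newly made particles by Psmb8, Psmb9 and Psmb10, which gives the immunoproteasome, known for cutting proteins into peptides suited to MHC class I molecules. The 19S cap recognises and unfolds substrates, and PA28, built from Psme1 and Psme2, is an alternative, interferon-inducible cap. Peptides that beta cells present on class I molecules are what cytotoxic T cells recognise in autoimmune diabetes.

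Reads assigned to genes ranged between 18465188 and 27379892 per library. Values are CPM, read counts scaled to a common library size by TMM, whose factors lay between 0.979 and 1.018. Beta cell transcripts were abundant, with a summed level of Ins1, Ins2, Iapp, Mafa, Pdx1, Nkx6-1, Slc2a2 and Ucn3 of 100587 to 132572 CPM in LPS and 116735 to 135503 CPM in untreated libraries; Slc2a2 and Ucn3 were called lower with LPS.

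The 3 immune catalytic subunits rose with LPS, and edgeR called no other member in either direction. This was 3 of 46 members (6.52%) called higher, against 2.84% of all genes tested, and 0 members called lower, against 0.928% of all genes, or 3.77% in either direction (edgeR's quasi-likelihood test, Benjamini-Hochberg adjusted p under 0.05 over all genes tested). No member was lower at an unadjusted p under 0.05 either, and none was called lower by DESeq2 or limma-voom. DESeq2 also called Psme2, Psmc5 and Psmb4 higher, and limma-voom called no further member. In RNA from a sorted population, a change in the share of one kind of cell and a change in RNA per cell cannot be told apart.

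Psmb8, the immune counterpart of Psmb5 (ENSMUSG00000024338), had 36.5, 35.2, 35.1, 41.7 and 54.0 CPM in LPS libraries 6 to 10, against 20.8, 22.3, 22.5, 25.2 and 26.8 CPM in untreated libraries 1 to 5. The groups did not overlap, and LPS 10 stood highest. The means were 40.5 ± 8.04 CPM with LPS and 23.5 ± 2.42 CPM untreated (SD, n = 5 each), a 1.72-fold difference (log2 fold change 0.79 ± 0.12 SE, edgeR adjusted p = 0.00189). Psmb10, the counterpart of Psmb7 (ENSMUSG00000031897), had 32.1, 31.7, 35.8, 38.6 and 45.8 CPM in LPS libraries and 22.4, 21.6, 24.5, 26.2 and 26.9 CPM in untreated libraries. Here too every LPS library was above every untreated one, with LPS 10 the highest. The means of Psmb10 were 36.8 ± 5.77 and 24.3 ± 2.30 CPM in LPS and untreated libraries, a 1.51-fold difference (log2 fold change 0.60 ± 0.11 SE, edgeR adjusted p = 0.00520).

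Psmb9, the counterpart of Psmb6 (ENSMUSG00000096727), had 17.4, 16.2, 17.4, 22.4 and 19.6 CPM in LPS libraries, against 13.6, 10.6, 13.1, 13.1 and 15.3 CPM in untreated libraries. The groups were separate but close, since LPS 7 and untreated 5 lay within 1 CPM of each other. Its means were 18.6 ± 2.43 CPM with LPS and 13.1 ± 1.69 CPM untreated (log2 fold change 0.50 ± 0.11 SE, 1.42-fold, edgeR adjusted p = 0.0240). The call of Psmb9 was lost when any one of LPS 9, LPS 10, untreated 2, untreated 3 or untreated 4 was left out, with adjusted p-values of 0.0691, 0.0540, 0.0612, 0.0624 and 0.0599, while Psmb8 and Psmb10 were called in all 10 such fits. Ordered from the highest log2 fold change to the lowest, with decreases last, Psmb8 ranked 318, Psmb10 509 and Psmb9 680 among the 15942 genes. Psmb9 shares 212 exonic bases with Tap1 on the opposite strand, and 14.7% of the exonic bases of Psmb8 overlap an antisense gene, Gm20496, which had 4 counts over all libraries. Whether counting used strand is not given in the sources used here.

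**Figure D1:**
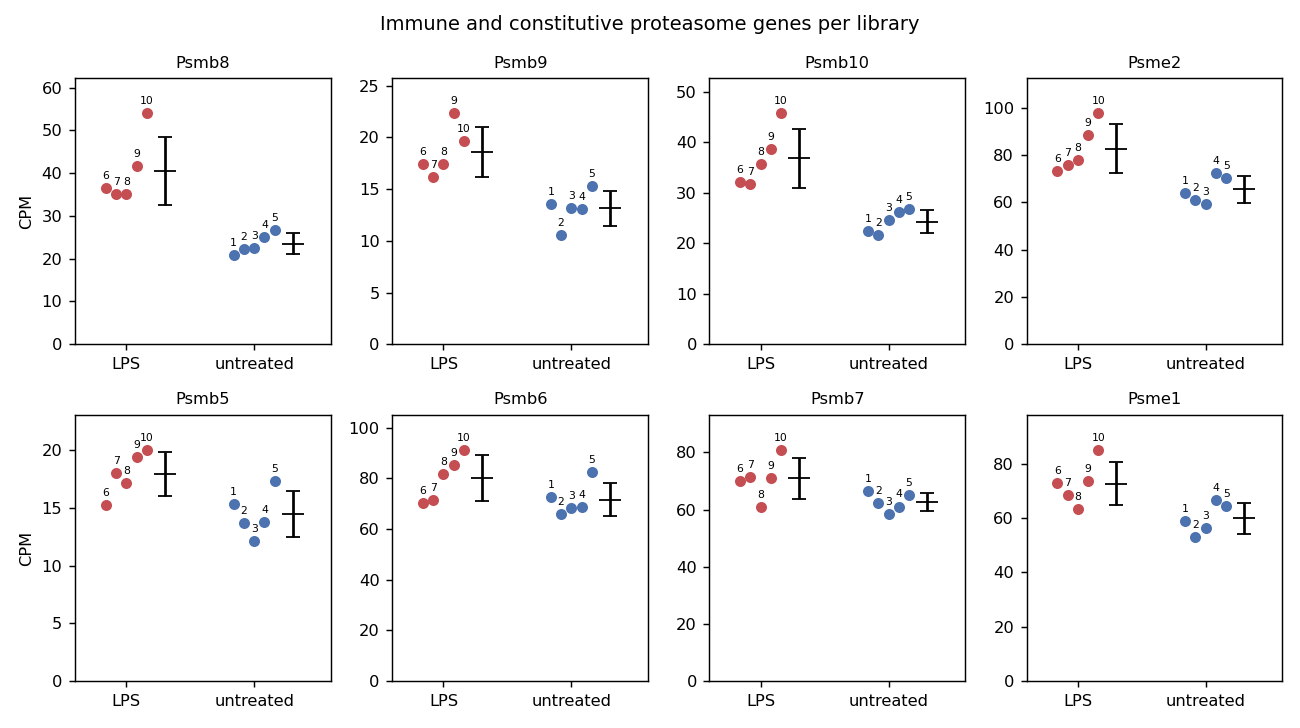
Level of 8 members in each library, in CPM, with LPS libraries left and untreated libraries right in each panel; dots are libraries marked with their number, and black bars give the mean ± SD of 5. Psmb8, Psmb9, Psmb10 and Psme2 show no overlap between the groups, while Psme1, Psmb5, Psmb6 and Psmb7 overlap.

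The thymus subunit Psmb11, which replaces Psmb5 and Psmb8 in thymic cortical epithelium, had 0 counts in all libraries, which allows at most 0.0268 CPM over the LPS and 0.0247 CPM over the untreated libraries (3 counts over the group, counting error only). Psma8, the alpha subunit of the testis proteasome, had 1 count in LPS 8 and 1 count in untreated 5. These are the 2 members that were not tested.

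Both PA28 alpha and beta had positive differences that were not called. Psme2, PA28 beta (ENSMUSG00000079197), had 73.3, 75.8, 78.1, 88.6 and 97.7 CPM in LPS libraries, against 64.1, 61.1, 59.4, 72.5 and 70.3 CPM in untreated libraries, again without overlap. Its means of 82.7 ± 10.2 CPM with LPS and 65.5 ± 5.70 CPM untreated differed by 0.34 ± 0.09 SE on the log2 scale, just outside the threshold (edgeR adjusted p = 0.0535). Of 8 other settings 3 called Psme2, with an adjusted p of 0.0136 with DESeq2, 0.0323 without a filter on low counts and 0.00462 with 1 surrogate variable, and 5 did not, limma-voom among them (0.0583), with values up to 0.0998. Of the 10 fits that left out a library 1 called it, without LPS 6 (0.0395), and the others gave up to 0.150. Psme1, PA28 alpha (ENSMUSG00000022216), had 72.9, 68.5, 63.4, 73.7 and 85.2 CPM in LPS libraries and 59.0, 53.2, 56.2, 66.5 and 64.4 CPM in untreated libraries. LPS 8 lay below untreated 4 and 5, so the groups overlapped, and the log2 difference of 0.28 ± 0.09 SE was not called (adjusted p = 0.106). Of the same 8 settings, 1 called Psme1, that with 1 surrogate variable (adjusted p = 0.0342), and none of the 10 fits that left out a library did. Psme2b, a near-identical copy of Psme2 that is not a member, had 7.77 ± 2.84 CPM with LPS and 6.02 ± 0.582 CPM untreated (log2 fold change 0.37, adjusted p = 0.515), and reads could be split between the copies.

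The other activators and the inhibitor differed little between groups, and none was called. Psme3, or PA28 gamma, a nuclear activator (ENSMUSG00000078652), averaged 91.7 ± 5.01 CPM in LPS and 86.0 ± 5.26 CPM in untreated libraries (log2 fold change 0.09 ± 0.06 SE, adjusted p = 0.539). Psme4, or PA200, averaged 150.0 ± 14.97 CPM with LPS and 149.4 ± 9.54 CPM untreated (log2 fold change 0.01, adjusted p = 0.982). The inhibitor Psmf1, or PI31, had the lowest log2 fold change of all members at -0.06 ± 0.06 SE, with 68.7 ± 4.21 CPM in LPS and 71.7 ± 2.14 CPM in untreated libraries (adjusted p = 0.686).

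None of the 3 constitutive catalytic subunits passed the test. Psmb5, which cuts after hydrophobic residues (ENSMUSG00000022193), had 15.2, 18.0, 17.2, 19.4 and 20.1 CPM in LPS libraries, against 15.4, 13.7, 12.1, 13.8 and 17.4 CPM in untreated libraries. LPS 6 and LPS 8 lay below untreated 5, and the log2 difference was 0.31 ± 0.11 SE (adjusted p = 0.160). Psmb6, which cuts after acidic residues (ENSMUSG00000018286), had 70.4, 71.3, 81.9, 85.4 and 91.3 CPM with LPS and 72.5, 65.8, 68.4, 68.6 and 82.6 CPM untreated, with a log2 fold change of 0.16 ± 0.09 SE (adjusted p = 0.417). Psmb7, which cuts after basic residues (ENSMUSG00000026750), had 70.1, 71.3, 61.0, 71.2 and 80.9 CPM with LPS and 66.7, 62.2, 58.3, 61.1 and 65.0 CPM untreated, with a log2 fold change of 0.18 ± 0.07 SE (adjusted p = 0.257). All 3 overlapped between groups and all 3 fitted differences were positive. In GENCODE M21 exons, 12.1% of the Psmb5 bases overlap Mir686 and 11.8% of the Psmb7 bases overlap Nek6.

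Because the constitutive subunits also had positive differences, each immune subunit was set against the subunit it replaces within the same library, as a log2 ratio of counts. Per 100 reads of Psmb5 there were 195 to 269 reads of Psmb8 in LPS libraries and 135 to 186 in untreated libraries, without overlap. The log2 ratio was 1.16 ± 0.19 with LPS and 0.70 ± 0.19 untreated (SD, n = 5 each), a difference of 0.45 ± 0.12 SE, or 1.37-fold. Psmb9 had 21.3 to 26.2 reads per 100 of Psmb6 with LPS and 16.1 to 19.2 untreated, a log2 difference of 0.34 ± 0.07 SE, or 1.27-fold. Psmb10 had 44.5 to 58.7 reads per 100 of Psmb7 with LPS and 33.6 to 42.9 untreated, a log2 difference of 0.42 ± 0.11 SE, or 1.33-fold. For each of these 3 pairs the two-sided exact permutation p was 0.00794, the smallest that 5 against 5 libraries allow, and 0.0132 after Benjamini-Hochberg adjustment over the 5 ratios computed. Without any one library the differences stayed within 0.38 to 0.50 for Psmb8 over Psmb5. They stayed within 0.30 to 0.38 for Psmb9 over Psmb6 and 0.36 to 0.47 for Psmb10 over Psmb7. Each exact permutation p was then 0.0159, the smallest that 4 against 5 libraries allow. That p was fixed by the lack of overlap over all libraries, so it is no further check.

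Set against Psme3 in the same way, PA28 alpha and beta did not pass. Psme1 over Psme3 differed by 0.19 ± 0.12 SE on the log2 scale (exact permutation p = 0.159, adjusted 0.159), with 70.6 to 95.6 reads per 100 of Psme3 in LPS and 60.7 to 82.0 in untreated libraries. Psme2 over Psme3 differed by 0.24 ± 0.14 SE (exact permutation p = 0.135, adjusted 0.159), with 73.3 to 109.7 reads per 100 in LPS and 68.4 to 89.4 in untreated libraries. Both ratios overlapped between groups.

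**Figure D2:**
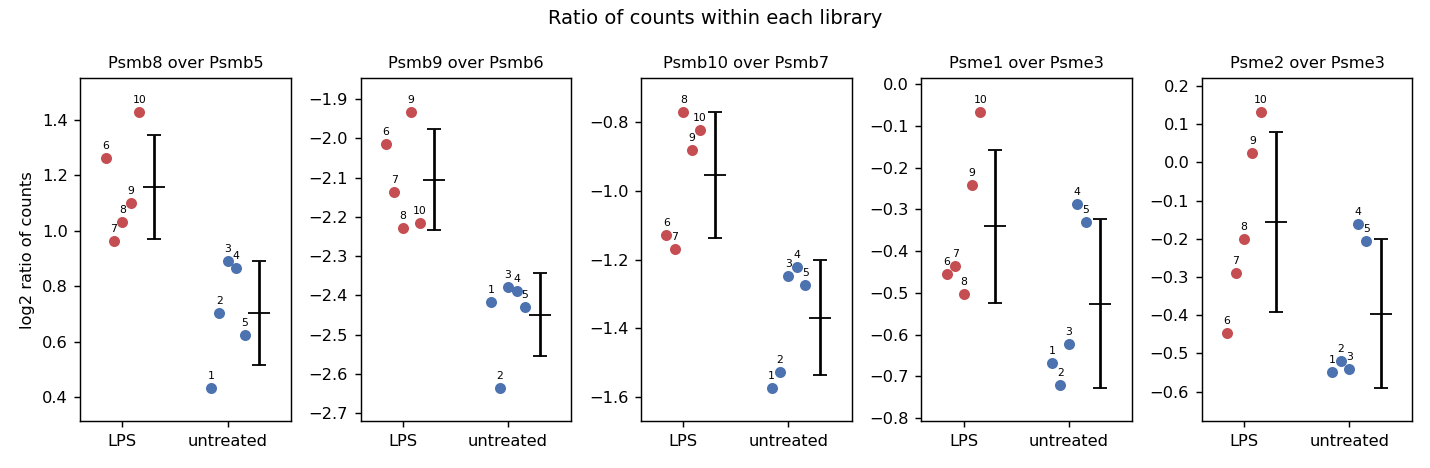
Log2 ratio of counts within each library for 5 pairs, with LPS libraries left and untreated libraries right; dots are libraries marked with their number, and black bars give the mean ± SD of 5. The 3 ratios of an immune to a constitutive catalytic subunit do not overlap between groups, and both ratios over Psme3 do.

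Compared per length, immune and constitutive subunits were not equally abundant. Mean levels in CPM per kilobase of principal transcript (GENCODE M21 lengths) were 24.9 for Psmb8 and 20.01 for Psmb5 in LPS libraries, and 14.4 and 16.1 in untreated libraries. Psmb5 was the lowest of the tested alpha, structural beta and constitutive catalytic genes, whose median was 60.5 with LPS and 54.2 untreated. The share of Psmb8 given below is therefore taken against a low Psmb5 level. Psmb9 stood at 13.8 with LPS and 9.72 untreated, far under Psmb6 at 100.3 with LPS and 89.7 untreated. Psmb10 stood at 28.1 with LPS and 18.5 untreated, against 61.1 and 54.0 for Psmb7. As a share of the summed level of each pair, Psmb8 made up 55.2 ± 3.21% with LPS and 47.4 ± 3.23% untreated, Psmb9 12.1 ± 0.961% and 9.75 ± 0.622%, and Psmb10 31.4 ± 2.71% and 25.6 ± 2.18% (SD, n = 5 each). With lengths over the union of all exons the share of Psmb8 became 37.3 ± 3.07% with LPS and 30.3 ± 2.71% untreated, and that of Psmb10 50.9 ± 3.17% and 43.7 ± 2.84%, so the shares themselves depend on the length used. By role, median levels per kilobase were 24.9 with LPS and 14.4 untreated for the immune catalytic subunits, 61.1 and 54.0 for the constitutive catalytic, 70.9 and 64.1 for the structural beta, 46.5 and 43.5 for the alpha subunits, and 51.8 and 48.3 for the ATPases. The chaperones were scarcer, at 17.4 with LPS and 15.5 untreated for 20S assembly and 7.89 and 7.23 for 19S assembly. Over all members tested, the highest level per kilobase was that of the alpha subunit Psma7, with 124.5 in LPS and 111.0 in untreated libraries, and the lowest that of the chaperone Psmg3, with 3.86 and 2.81.

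**Figure D3:**
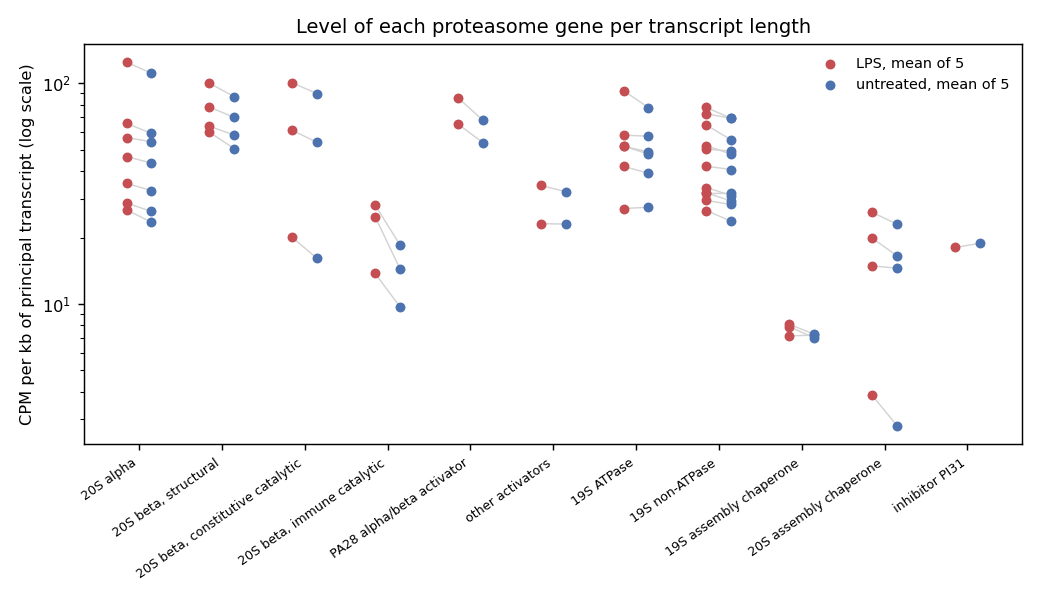
Mean level of each tested member in CPM per kilobase of principal transcript, on a log axis, by role, with LPS and untreated means of 5 libraries. The immune catalytic subunits lie below most structural subunits in both groups, and Psma7 is highest.

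The remaining members gave small differences, mostly of one sign. Of the 41 tested members other than the 3 immune catalytic subunits, Psme1 and Psme2, none was called by edgeR (adjusted p between 0.103 and 0.997) and 10 were higher at an unadjusted p under 0.05; DESeq2 called Psmc5 and Psmb4 among them, and limma-voom called none. Their log2 fold changes had a median of 0.13, with 37 above 0 and 4 below, and the largest was 0.45. Over all 46 members, 42 (91.3%) had a log2 fold change above 0, against 47.9% of all genes tested, and the median was 0.14, against -0.01 for all genes. At an unadjusted p under 0.05, 15 members (32.6%) were higher, against 8.32% of all genes, and 0 were lower, against 6.98%. Beside the immune catalytic and PA28 subunits these were Psmb3, Psmb4, Psmb5, Psmb7, Psma2, Psma6, Psmc5, Psmd3, Psmd4 and Psmg4. Values of every LPS library lay above every untreated library for 5 members (10.9%), Psmb8, Psmb9, Psmb10, Psme2 and Psmb4, against 3.84% of all genes, and the reverse held for 0 members, against 1.87%, or 5.71% in either direction.

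LPS 10 had the highest value of its group for 36 of the 46 members. Its median log2 difference from the untreated mean over the members was 0.30, against 0.06 to 0.13 for the other 4 LPS libraries. Without LPS 10, 41 of 46 members stayed above 0 with a median of 0.11, and 2 members were called: Psmb8 at 0.66 (adjusted p = 0.00115) and Psmb10 at 0.51 (adjusted p = 0.00674). Untreated 5 was likewise the highest of its group for 22 members. What sets these libraries apart was not tested.

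By role, the 7 tested alpha subunits had a median log2 fold change of 0.13, with Psma2 at 0.18 (adjusted p = 0.198) and Psma1 at 0.06 (adjusted p = 0.739) at the ends. The 4 structural beta subunits, which hold the inner rings together without cutting, had a median of 0.18. Psmb4 led in separation, with 115.6, 109.3, 113.5, 124.4 and 128.5 CPM in LPS libraries, against 106.4, 97.3, 97.7, 103.9 and 108.7 CPM in untreated libraries. That is a difference of 0.20 ± 0.06 SE on the log2 scale, not called at an adjusted p of 0.109. Psmb3 had the highest fold change of the 4 at 0.25 (adjusted p = 0.196) and Psmb1 the lowest at 0.13 (adjusted p = 0.411).

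In the 19S cap, the 6 ATPases, which form the motor that unfolds substrates, had a median log2 fold change of 0.10. Psmc5 was highest with 108.0, 118.6, 126.2, 115.9 and 140.1 CPM in LPS libraries, against 92.7, 95.4, 104.7, 106.2 and 111.1 CPM in untreated libraries. Only LPS 6 fell within the untreated range, and the difference of 0.26 ± 0.08 SE was not called (adjusted p = 0.103). Psmc6 was lowest at -0.02 (adjusted p = 0.937). The 11 non-ATPase subunits had a median of 0.12; the ubiquitin receptor Psmd4 was highest at 0.22 ± 0.10 SE (adjusted p = 0.307), and the scaffold Psmd1 had 98.6 ± 11.1 CPM with LPS and 98.7 ± 9.43 CPM untreated (adjusted p = 0.997). Among the 3 chaperones of 19S assembly, Psmd10 stood at 0.17 (adjusted p = 0.491) and Psmd5 at -0.01 (adjusted p = 0.964).

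The 4 chaperones of 20S assembly had a median log2 fold change of 0.22. Psmg3, the member with the largest fold change outside the immune catalytic subunits, had 2.44, 2.89, 4.04, 4.24 and 3.44 CPM in LPS libraries, against 1.94, 2.55, 1.94, 2.32 and 3.66 CPM in untreated libraries. The groups overlapped at this low level, and the difference of 0.45 ± 0.22 SE was not called (adjusted p = 0.351). Psmg1 stood at 0.03 (adjusted p = 0.938).

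**Figure D4:**
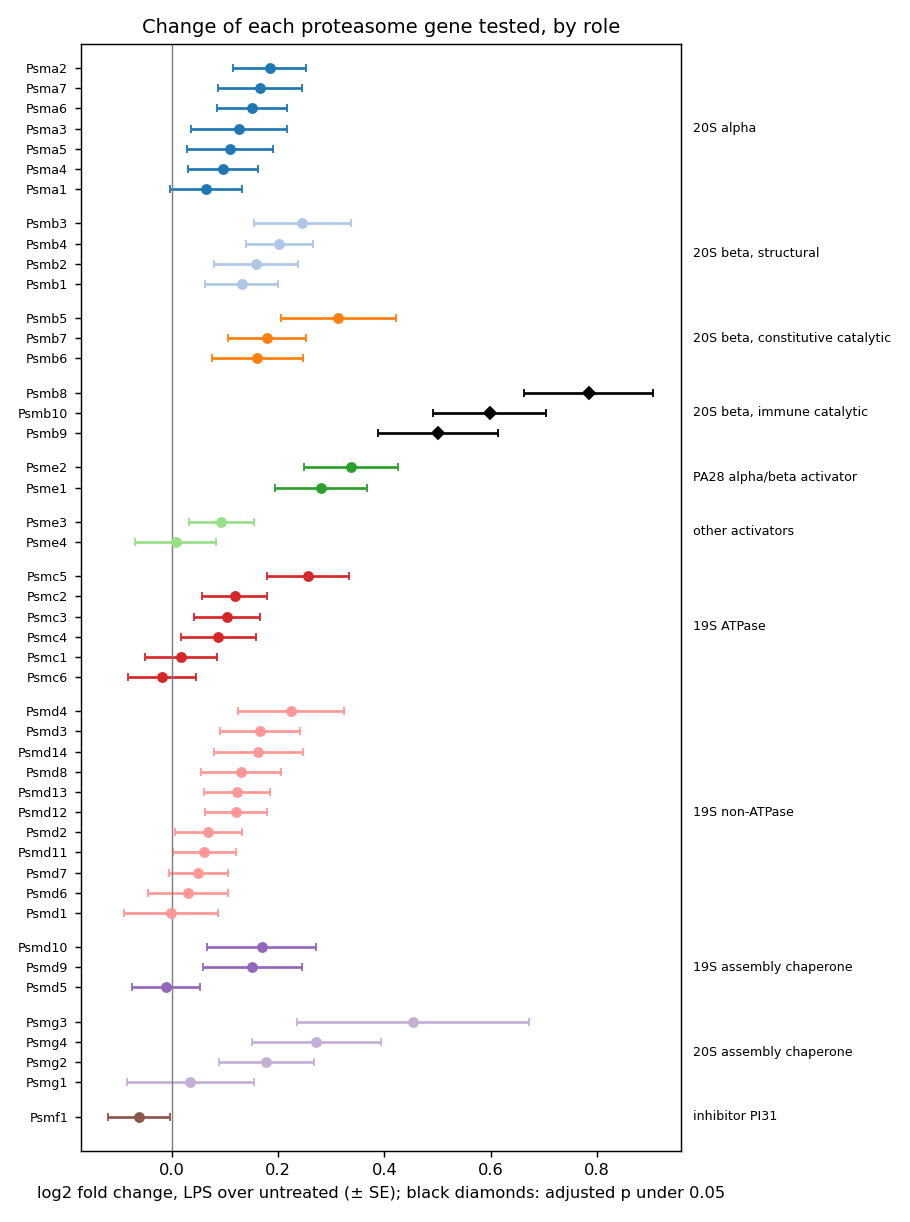
Log2 fold change (LPS over untreated) of the 46 tested members with its SE, grouped by role; black diamonds mark members called at an adjusted p under 0.05. Psmb8, Psmb10 and Psmb9 are the called members, and most others lie slightly above 0.

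The 250 bases before the annotated start were searched in both directions for 4 motifs in the 40 members with a RefSeq promoter window (GRCm38.p6; Psma8, Psmb1, Psmb2, Psmb7, Psmc3, Psmd3, Psmd7 and Psmg2 had none). The motifs were the core of the interferon-stimulated response element (GAAA, any 2 bases, GAAA), the GAS element (TTCNNNGAA), a loose NF-kB site (GGG, any 5 bases, CC) and the antioxidant response element (TGACNNNGC). They occur in 2.98%, 7.02%, 45.8% and 10.2% of all 32851 RefSeq mouse windows of this length. The windows of Psmb8, Psmb9 and Psmb5 are printed, since they hold motif matches in 2 called subunits and in the constitutive partner of one of them: Psmb8 at chr17:34197945-34198194 on the plus strand, Psmb9 at chr17:34187331-34187580 on the minus strand and Psmb5 at chr14:54617996-54618245 on the minus strand, each 5′ to 3′ toward the start site, with capitals marking motif matches.
Psmb8: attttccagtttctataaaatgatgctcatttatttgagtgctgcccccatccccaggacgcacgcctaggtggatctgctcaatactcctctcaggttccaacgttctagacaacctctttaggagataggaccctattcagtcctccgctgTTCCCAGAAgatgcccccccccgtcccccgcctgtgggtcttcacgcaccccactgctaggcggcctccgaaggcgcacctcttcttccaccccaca
Psmb9: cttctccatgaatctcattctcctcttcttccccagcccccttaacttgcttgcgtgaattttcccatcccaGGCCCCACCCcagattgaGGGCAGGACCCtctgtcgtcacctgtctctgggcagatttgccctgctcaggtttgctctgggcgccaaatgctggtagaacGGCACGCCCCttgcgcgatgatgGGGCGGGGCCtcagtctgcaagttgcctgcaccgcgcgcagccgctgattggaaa
Psmb5: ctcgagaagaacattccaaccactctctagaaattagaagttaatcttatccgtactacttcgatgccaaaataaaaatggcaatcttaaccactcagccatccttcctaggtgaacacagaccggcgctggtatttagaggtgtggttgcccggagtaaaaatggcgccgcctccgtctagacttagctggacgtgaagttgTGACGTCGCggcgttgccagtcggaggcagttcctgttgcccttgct

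The Psmb8 window holds a single GAS match, TTCCCAGAA, between bases -97 and -89, and the opposite strand of the same bases also matches. The Psmb9 window holds 5 NF-kB matches, of which 2 overlap. Counted on both strands, the window of Psmd12 holds 6 and that of Psma7 holds 4, and neither gene was called by edgeR. How many NF-kB matches per window occur over all genes was not counted. The Psmb5 window holds 1 antioxidant response element match, TGACGTCGC, between -47 and -39. Among Psmb8, Psmb9, Psmb10, Psme1 and Psme2, GAS matched in 1 of 5 genes, NF-kB in 3 (Psmb9, Psme1 and Psme2), and the interferon-stimulated and antioxidant elements in 0; the Psmb10 window held none of the 4. Among the 35 other members with a window, the interferon-stimulated element matched in 3 (Psmb3, Psmd4 and Psmd9), GAS in 1 (Psmg1), NF-kB in 19 and the antioxidant element in 5, among them Psmb5 and Psmb6. Such matches describe letters in a window and show no binding. The windows come from the reference build, not from the NOD genome, so bases in these mice may differ.

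Among genes that act with the proteasome, the transcriptional regulators and the class I peptide pathway held called members, all higher. Of 10 tested regulators of proteasome genes 3 were called higher, against 2.84% of all genes tested. Irf1, an interferon-induced activator of immunoproteasome genes, averaged 164.9 ± 18.1 CPM with LPS and 99.6 ± 7.20 CPM untreated (log2 fold change 0.73 ± 0.08 SE, edgeR adjusted p = 1.64e-04). Nlrc5, the activator of class I genes, averaged 14.3 ± 1.67 CPM with LPS and 8.43 ± 1.63 CPM untreated (0.76 ± 0.13 SE, adjusted p = 0.00491). Nfe2l1, which drives constitutive proteasome genes when proteasome activity is short, averaged 599 ± 53.9 CPM with LPS and 496 ± 21.6 CPM untreated (0.27 ± 0.07 SE, adjusted p = 0.0489); its call was lost in 9 of the 10 fits that left out a library (all but LPS 10), with adjusted p up to 0.129, with DESeq2 size factors (0.0553) and without a filter on low counts (0.0707). Rela, an NF-kB subunit, stood at 0.54 and was not called (edgeR adjusted p = 0.0732). LPS 6 had 156.8 CPM of Rela, the other LPS libraries 84.4 to 94.9 CPM and the untreated libraries 63.4 to 87.0 CPM.

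Of 15 tested genes that transport, trim or load the peptides made by the proteasome, 5 were called higher, against 2.84% of all genes. Tap1, the peptide transporter whose gene neighbours Psmb9 and Psmb8 on chromosome 17, averaged 38.9 ± 4.79 CPM with LPS and 23.6 ± 2.53 CPM untreated (log2 fold change 0.72 ± 0.10 SE, adjusted p = 7.32e-04). Its partner Tap2 stood at 0.52, the loading factors Tapbp at 0.52 and Tapbpl at 0.58, and B2m, the light chain of class I molecules, at 1.43. None of 22 tested cofactors, receptors and deubiquitinases of the proteasome was called by edgeR, DESeq2 or limma-voom, with 1 higher at an unadjusted p under 0.05 and a median log2 fold change of 0.05; the most abundant, Vcp and Rad23b, each stood at 0.05. None of the 6 tested ubiquitin and E1 genes was called by any of these tools, with 0 at an unadjusted p under 0.05, a median of 0.06, and Ubb at 0.03. Over all genes, edgeR called 3.77% in either direction, and 8.32% were higher at an unadjusted p under 0.05. At these shares, lists of 22 and 6 genes without a call are not set apart from all genes. The regulators had a median of 0.32 and the class I pathway genes of 0.17, against -0.01 over all genes. None of these 4 lists held a gene called lower in edgeR, DESeq2 or limma-voom, or lower at an unadjusted p under 0.05. Of all genes, edgeR called 0.928% lower, and 6.98% were lower at an unadjusted p under 0.05.

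Immune cells carry high levels of immunoproteasome transcripts, so their markers are given beside these results. Of 14 macrophage markers, Ptprc had 0 counts in every library and Adgre1 had 0 counts over the LPS and 1 over the untreated libraries. Their summed level was 36.4 to 47.1 CPM in LPS and 29.2 to 42.1 CPM in untreated libraries, nearly all of it Cd68 (26.8 and 16.8 CPM, called higher, adjusted p = 0.0141) and C1qa (14.7 and 18.7 CPM, adjusted p = 0.213). The other 12 macrophage markers summed to 57 counts over the LPS and 85 over the untreated libraries. Of 12 lymphocyte markers, Cd3e, Cd3d, Cd3g, Ms4a1, Nkg7 and Ncr1 had 0 counts, and the sum was 1.33 to 2.82 CPM in LPS and 2.53 to 3.85 CPM in untreated libraries. Most of this sum was Cd79a (1.93 and 2.67 CPM, not called, edgeR adjusted p = 0.423). The other 11 lymphocyte markers summed to 17 counts over the LPS and 42 over the untreated libraries. Endothelial markers summed to 2.29 to 5.93 CPM with LPS and 2.76 to 25.2 CPM untreated, with Kdr called lower. Ductal markers summed to 1475 to 2089 CPM with LPS and 1198 to 1539 CPM untreated. Most of this was Krt8 (means of 777 and 586 CPM), Krt7 (473 and 424 CPM) and Krt18 (327 and 269 CPM), none of them called. Krt19 (8.50 and 5.08 CPM) and Sox9 (1.51 and 1.51 CPM) were low and not called, and Cftr (0.467 and 0.516 CPM) was not tested. Spp1 (91.1 and 46.4 CPM) was called higher at 0.97. Ppy, the hormone of PP cells, was called lower at -0.99. Alpha cell markers were abundant, with sums of 4138 to 8931 CPM with LPS and 4984 to 14271 CPM untreated. For delta cell markers the sums were 4975 to 9060 CPM and 6072 to 8201 CPM. Acinar markers summed to 128 to 580 CPM and 221 to 426 CPM, and mesenchymal markers to 4.25 to 28.3 CPM and 6.00 to 94.6 CPM. No alpha, delta, acinar or mesenchymal marker was called. The part of all these other cells, and of Cd68, in the rise of Psmb8, Psmb9 and Psmb10 was not tested.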

How the data were processed

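RNA-seq libraries of sorted beta cells were grouped by their titles into 5 LPS and 5 untreated libraries. The authors deposited raw counts per Ensembl gene, 1 table per library; per the submitters' processing notes, the build was GRCm39 and the tools included STAR, HTSeq, DESeq2, Trimmomatic, FastQC and SAMtools. For their versions, the annotation release and strand use, nothing is stated in the sources used here. The 5 closing totals that name no gene were left out (no feature 8.84 to 12.9%, ambiguous 1.40 to 1.61%, not unique 4.89 to 6.10% of reads). GRCm39 is not the NOD genome. Symbols, exon overlaps and lengths came from GENCODE M21 by gene identifier, with no coordinates transferred.

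Counts were fitted in R 4.3.3 with edgeR 4.0.16: TMM, the quasi-likelihood F test and filterByExpr (at least 10 counts, total at least 15), adjusted by Benjamini-Hochberg over 15942 genes. The SE of each edgeR log2 fold change was computed as its absolute value divided by the square root of the F statistic. Ratios used 0.5 added to each count and two-sided exact permutation tests over libraries. Alternatives were DESeq2 1.42.0, limma-voom (limma 3.58.1), svaseq (sva 3.50.0), other scalings and filters, and leaving out each library. The fit was also run on simulated counts whose planted changes were larger than the differences of most members. That run does not speak to small differences, and its outcome is not given here. Named were Psmb8, Psmb9, Psmb10, Psme1, Psme2, Psme3, Psmb5, Psmb6, Psmb7, all called members, the highest and lowest of each role, and up to 5 called (or the 2 most abundant) genes of each list. Psmb4 and the members not tested were named after their values were seen, as were Rela, Psma7 and the markers. Paaf1 matched no symbol. Some genes of the lists are not reported here by name. The members and lists were chosen with earlier results of these data known.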

Additional observations from a re-analysis of the deposited data

Results flagged for a closer look

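In 102 groups of 5 libraries, the highest or lowest library was compared with its nearest neighbour by Dixon's criterion (0.710 for 5), which chance passes in about 1 of 20 groups. It marked 5. Untreated 5 was set apart for 3 members: the ubiquitin receptor Psmd4 at 91.2 CPM (next 70.8 CPM), the 19S subunit Psmd7 at 70.1 CPM (next 64.0 CPM) and the inhibitor Psmf1 at 67.9 CPM, below the next at 72.5 CPM. LPS 10 was set apart for the assembly chaperone Psmg4 at 14.4 CPM (next 10.6 CPM). Untreated 2 had the lowest log2 ratio of Psmb9 over Psmb6 at -2.64, with the next at -2.43. It lies on the side away from the LPS libraries, so leaving it out could not make the groups overlap. The exact permutation p without it, 0.0159, was therefore fixed and is no check on this library.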

How the results depend on the processing

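Members called higher numbered 6 with DESeq2 and 9 with 1 surrogate variable, against 3 in the edgeR fit, and 2 to 4 when 1 library was left out; none was called lower in any setting. Beyond the immune catalytic subunits, the fit with 1 surrogate variable called Psme1, Psme2, Psmb3, Psmb4, Psmc5 and Psmd4. With 1 surrogate variable, 1 proteasome-associated gene, 6 regulators and 8 class I pathway genes were called. Leaving out 1 library gave 0 to 1 proteasome-associated genes, the 1 without untreated 5. Over all genes, 601 were called by edgeR, 950 by DESeq2, 1335 with 1 surrogate variable, and 401 to 624 without 1 library. Of single-gene values, 562 kept direction and call, 16 lost the call, 9 gained it and 25 changed sign, in 7 genes and at most 0.0509 in size. The sign of Psmd1 turned without a filter on low counts (0.001011) and with 1 surrogate variable (0.015229). That of Psme4 turned with upper-quartile factors (-0.008281) and at 1 CPM or more in 5 libraries (-0.001231). The sign of Psme4 also turned with library sizes summed without the 20 most abundant genes and no TMM (-0.018415). Without 1 library, values lay between -0.0442 and 0.0140 for Psmc6, -0.0575 and 0.0509 for Psmd1, -0.0454 and 0.00524 for Psmd5, -0.0418 and 0.0516 for Psme4, -0.0180 and 0.118 for Psmg1, -0.0126 and 0.0889 for Rad23b, and -0.0212 and 0.117 for Ubb. The cause of these changes was not tested. Adding 0 or 2 to counts changed no ratio's call. No paired analysis was possible because the groups share no replicate number. Depth limits Psmg3, Psma8 and Psmb11 most.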
